A study of Mus musculus with 12 samples.

Results

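The question asked here was whether the loss of 1 Tia1 allele is accompanied by different transcript levels in mouse cortex when P301S tau is present than when it is absent. For each autosomal gene, the Tia1 difference with tau (P301S Tia1+/- minus PS19) was set against the Tia1 difference without tau (Tia1+/- minus WT), and the difference between those differences, on the log2 scale, is called the interaction. A positive interaction means that the Tia1+/- difference was higher with tau than without, and a negative interaction that it was lower. All 12 bulk RNA-seq libraries of the series entered, 3 for each of 4 groups, and the members were the 14838 autosomal genes tested out of 22825 autosomal genes among 24062 symbols in the table of counts. By their titles the groups were WT mice, Tia1+/- mice, mice with the P301S transgene and intact Tia1 (PS19, titled P301S), and mice with the transgene and 1 Tia1 null allele (P301S Tia1+/-), all 9 months old. The transgene of the PS19 line encodes human 1N4R tau with the P301S substitution, driven by the mouse Prnp promoter, so each effect of tau here is an effect of this overexpressed mutant transgene. The Tia1 null allele (tm1Andp) is constitutive, so every cell type carries it, it was backcrossed to C57BL/6J, and only heterozygotes were sequenced.

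TIA1 is an RNA-binding protein with a prion-like domain that regulates alternative splicing in the nucleus and nucleates stress granules, the cytoplasmic assemblies that hold stalled translation complexes when cells are stressed. Tau is a microtubule-binding protein of neurons that misfolds and aggregates in Alzheimer's disease and in frontotemporal dementias with tau inclusions, and the P301S substitution makes it aggregate more readily. A 2-by-2 design separates the effect of each factor from what the factors do only in combination, and the last is what the interaction measures. In bulk cortex, fewer cells of a type and less RNA per cell cannot be told apart.

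Several facts of the labels and libraries bear on every value. Totals ranged from 11978962 to 19146484 counts per library. No library was a near copy of another in its group, and pairs across groups were not checked for copies. Nothing in the labels says that the 3 libraries of a group came from separate mice. The p-values therefore measure only the spread between these libraries, which may be technical. Levels are given in CPM, read counts scaled to the size of the library. Tia1 had 75.4 to 93.8 in WT, 72.6 to 77.8 in P301S Tia1+/-, 61.4 to 79.8 in Tia1+/- and 70.8 to 77.9 in PS19. Tia1 transcript thus did not separate the labelled genotypes, a count over the whole gene does not show the null allele, and group names below stand for the titles of the libraries. For 2 groups, Tia1+/- and P301S Tia1+/-, the genotype written in the labels is that of the other one, and if those entries were right the quantity reported here as the interaction would be the level in libraries without tau minus that in libraries with tau. Both Tia1+/- groups carried Xist, the RNA of the inactive X chromosome, at 217 to 367 CPM, whereas WT and PS19 libraries held at most 0.783 CPM. Ddx3y, a Y-linked helicase gene, had at most 0.119 CPM in both Tia1+/- groups and 119 to 169 CPM in WT and PS19. The methods, however, state that all mice analysed were male unless noted. The paper reads the change in Xist and Y-linked transcripts as an effect of Tia1 heterozygosity, and reports it by PCR in separate males. By the transcripts of these libraries, Tia1 genotype and sex cannot be told apart in either difference. Summed CPM of 16 olfactory bulb markers was 991 to 1141 in P301S Tia1+/-, 1540, 270 and 103 in WT replicates 1, 2 and 3, 299 in Tia1+/- replicate 3 and 54.3 to 68.2 in the other 5 libraries. Striatal markers summed to 2494 CPM in Tia1+/- replicate 3 and to 272 to 498 in the other 11 libraries.

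A single autosomal gene passed the test of the interaction. F630042J09Rik, a long intergenic noncoding RNA, had an interaction of -3.61 ± 0.42 (SE, 3 libraries per group) with an adjusted p of 0.0466 (edgeR's quasi-likelihood test with Benjamini-Hochberg adjustment), which is 0.00674% of the genes tested, in the negative direction. The adjusted p-values of the next genes gathered just above the threshold, starting at 0.0579. There were 58 genes under 0.06 (42 positive), 326 under 0.07, 527 under 0.08 and 989 under 0.10 (6.67% of the genes tested, 702 positive, 4.73%, and 287 negative, 1.93%). An unadjusted p under 0.05 was found for 3405 genes (22.9%), of which 2034 were positive (13.7%) and 1371 negative (9.24%). The median interaction over all genes tested was 0.01, with quartiles of -0.30 and 0.31.

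The number of genes past the threshold turned on the test and on single libraries. DESeq2's Wald test called 1167 genes (799 positive), limma-voom with a weight per group called 261 (201 positive), and edgeR with robust estimation called 0, with 3384 genes at an unadjusted p under 0.05. Leaving out 1 library at a time gave 0 to 997 genes, with 997 without WT replicate 3, 391 without Tia1+/- replicate 3, 235 without WT replicate 1 and 11 without WT replicate 2. Without both WT replicate 1 and Tia1+/- replicate 3, edgeR called 2023 genes (1030 positive). With the olfactory bulb marker level as a covariate it called 1389 (798 positive). That covariate was the centred sum of log2 CPM of the bulb markers Omp, S100a5, Stoml3, Gng13, Doc2g, Cdhr1, Tbx21, Eomes and Trh. It was not the summed CPM given above. The spread between replicates was unequal, with a median within-group SD of log2 CPM of 0.241 in WT, 0.122 in P301S Tia1+/-, 0.187 in Tia1+/- and 0.137 in PS19. Whether this inequality set the calls was not tested beyond the weighted fit.

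**Figure D1:**
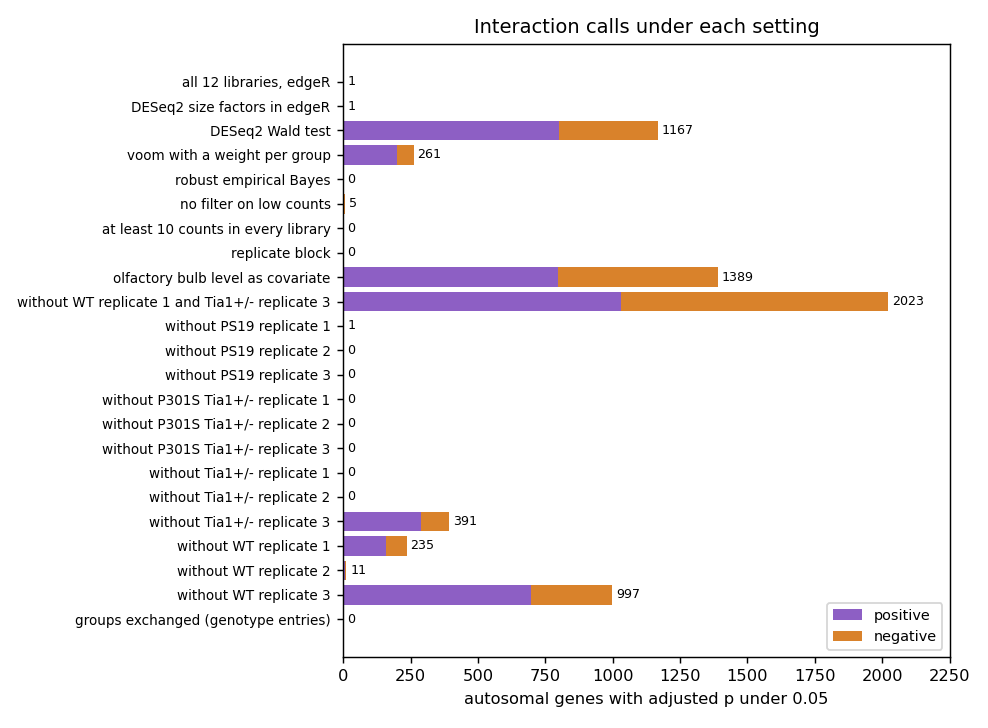
Number of autosomal genes with an adjusted p under 0.05 for the interaction (x axis) under each setting (y axis), split into positive and negative interactions. The bars run from 0 to 2023, and the fit of all 12 libraries gives 1.

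Across genes, the Tia1 differences with and without tau tended to run in opposite directions. They had opposite signs in 56.4% of the 14838 genes, with Pearson's r = -0.49 and Spearman's rho = -0.25 across genes, which share libraries and are not independent replicates. This description rested on WT replicate 1: without it r was -0.01, rho was 0.17 and 43.3% of genes had opposite signs. Without Tia1+/- replicate 3 r was -0.65, and without both libraries it was -0.37 with rho at -0.08. Seen the other way, the tau differences in Tia1+/+ and in Tia1+/- mice had r = -0.64 and opposite signs in 63.5% of genes. Of the 6 pairs of groups, Tia1+/- and PS19 had the smallest median absolute log2 difference, 0.117, and the other pairs had 0.175 to 0.198. If the exchanged genotype entries were right, both groups of that closest pair would carry tau.

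**Figure D2:**
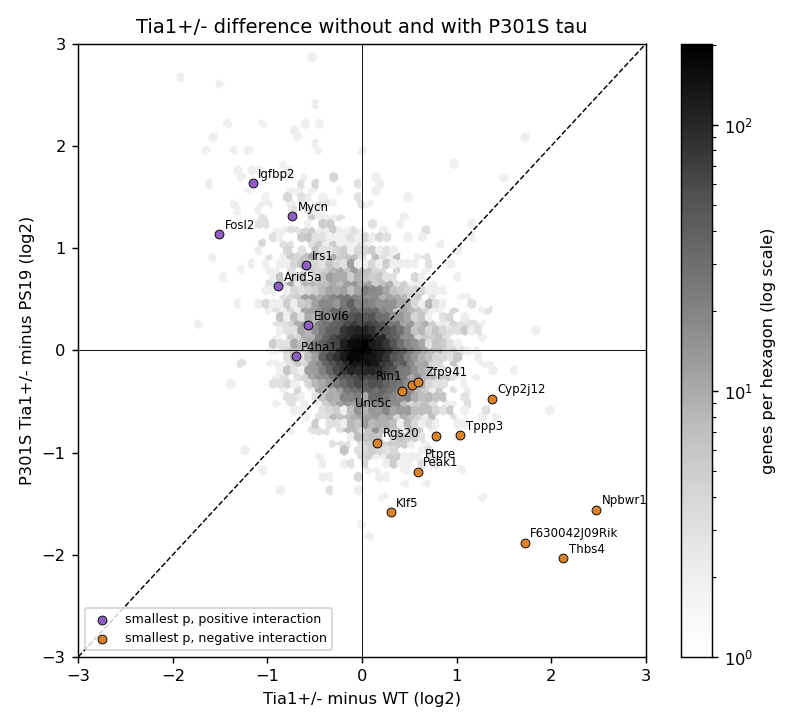
Each hexagon counts autosomal genes by their Tia1+/- minus WT difference (x axis, log2) and their P301S Tia1+/- minus PS19 difference (y axis, log2), and the dashed line marks equal differences, where the interaction is 0. Axes stop at 3, which leaves 167 genes outside, and circles mark 19 of the 24 genes with the smallest p in either direction, which lie far from the dashed line.

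How the 12 libraries were ordered gives a view that needs no test. For 475 genes (3.20%) the Tia1 differences crossed, which means that P301S Tia1+/- lay wholly on one side of PS19 while Tia1+/- lay wholly on the opposite side of WT. In 290 of them (1.95%) the crossing was positive and in 185 (1.25%) negative. For 438 genes (2.95%) both Tia1 differences were free of overlap in the same direction. The 3 libraries of 1 group stood wholly above the 9 others most often for WT (490 genes, 3.30%) and for P301S Tia1+/- (372 genes, 2.51%), against 136 genes (0.917%) for PS19 and 145 (0.977%) for Tia1+/-. The 3 libraries lay wholly below the 9 others for 357 genes in WT (2.41%), 270 in P301S Tia1+/- (1.82%), 159 in PS19 (1.07%) and 133 in Tia1+/- (0.896%). With the 12 libraries set 6 against 6, WT with P301S Tia1+/- lay wholly above Tia1+/- with PS19 for 177 genes (1.19%) and wholly below for 111 (0.748%). The split by Tia1 genotype, with both Tia1+/- groups on one side, gave 91 genes above (0.613%) and 111 below (0.748%). The split by tau, as titled, gave the fewest, 31 above (0.209%) and 13 below (0.0876%). If the exchanged genotype entries were right, the split by tau would instead be that of WT with P301S Tia1+/- against Tia1+/- with PS19.

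F630042J09Rik lies at chr13:67278577-67283361 (GRCm38, forward strand), where it overlaps no other listed gene. It had 0.640, 0.423 and 0.760 CPM in WT, 0.943, 1.02 and 0.892 in P301S Tia1+/-, 2.07, 1.77 and 2.25 in Tia1+/- and 2.55, 4.56 and 3.55 in PS19. The groups did not overlap in any pairing: PS19 was highest, Tia1+/- next, then P301S Tia1+/-, and WT lowest. The Tia1+/- difference was -1.88 with tau and 1.72 without. These values rest on few reads, from 5 to 10 counts per library in WT to 49 to 59 in PS19. The direction was the same in all 20 alternative fits of the titled groups that tested the gene, with interactions from -4.02 to -3.41, and the call was kept in 11 of them. It was lost with robust estimation, with the replicate block, and without PS19 replicate 2 or 3, Tia1+/- replicate 1 or 2, or any 1 library of P301S Tia1+/-, where the adjusted p reached at most 0.152. The promoter window of the gene (250 bases before to 50 after the RefSeq start, GRCm38.p6) was the only one among the 18 of the 24 genes with the smallest p that had such a window to hold the cAMP response element TGACGTCA, a palindrome that 2.03% of 27025 genes hold in their windows. It is shown because it belongs to the called gene, with the element in capitals, at chr13:67278538-67278555 on the forward strand:
F630042J09Rik: ctctgTGACGTCAcagta
The match describes letters in the window and was not tested as a binding site.

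None of the other 11 genes with the smallest p in the negative direction passed the test, all with an adjusted p of 0.0579 (edgeR). They were Ptpre, a receptor-type protein tyrosine phosphatase, Rin1, a Rab5 exchange factor of forebrain neurons, Thbs4, a secreted thrombospondin, Tppp3, a tubulin polymerization-promoting protein, Peak1, a pseudokinase of the cytoskeleton, Unc5c, a netrin receptor, Klf5, a zinc finger transcription factor, Npbwr1, a neuropeptide receptor, Zfp941, a zinc finger protein, Cyp2j12, a cytochrome P450, and Rgs20, a regulator of G-protein signalling. Ptpre (chr7:135537481-135686293) had 17.2, 26.1 and 23.2 CPM in WT, 21.1, 20.9 and 19 in P301S Tia1+/-, 34.4, 37.1 and 42.9 in Tia1+/- and 41.8, 35.5 and 32.1 in PS19, an interaction of -1.62 ± 0.22 (SE). Rin1 (chr19:5050481-5057071) had 30.6, 38.0 and 36.7 CPM in WT, 35.8, 40.1 and 40.8 in P301S Tia1+/-, 52.1, 48.8 and 50.6 in Tia1+/- and 46.9, 52.2 and 49.0 in PS19, an interaction of -0.87 ± 0.13 (SE). For both genes WT and P301S Tia1+/- shared a low range and Tia1+/- and PS19 shared a high one, with no overlap between the low and the high range.

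Thbs4, Tppp3, Unc5c, Npbwr1 and Cyp2j12 were ordered in the same way, with WT and P301S Tia1+/- wholly below the other 6 libraries. Unc5c (chr3:141465216-141834924) had 46.0, 52.9 and 51.0 CPM in WT, 38.9, 46.9 and 42.8 in P301S Tia1+/-, 66.1, 61.0 and 73.9 in Tia1+/- and 56.3, 55.9 and 56.7 in PS19, an interaction of -0.82 ± 0.14 (SE). Here Tia1+/- stood above all 9 other libraries. The largest negative interactions among these genes were those of Thbs4 (-4.16 ± 0.68, SE) and Npbwr1 (-4.04 ± 0.70, SE), both low transcripts whose WT libraries held at most 1.83 and 0.456 CPM.

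Klf5 and Rgs20 differed from that order, since P301S Tia1+/- alone stood below the 9 other libraries. Klf5 had 2.80 to 4.94 CPM in WT, 1.57 to 1.80 in P301S Tia1+/-, 4.96 to 5.18 in Tia1+/- and 4.28 to 6.13 in PS19 (interaction -1.89 ± 0.32, SE). Rgs20 had 14.7 to 16.0 CPM in WT, 9.24 to 10.2 in P301S Tia1+/-, 15.2 to 18.1 in Tia1+/- and 14.8 to 20.9 in PS19 (interaction -1.07 ± 0.19, SE). With the olfactory bulb marker level as a covariate, the negative interactions of F630042J09Rik (-4.02), Rgs20 (-1.20), Unc5c (-0.89), Zfp941 (-0.85) and Ptpre (-1.39) kept close to their values, whereas Thbs4 (-0.48), Peak1 (-0.61), Tppp3 (-0.75) and Klf5 (-0.86) were nearer to 0.

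**Figure D3:**
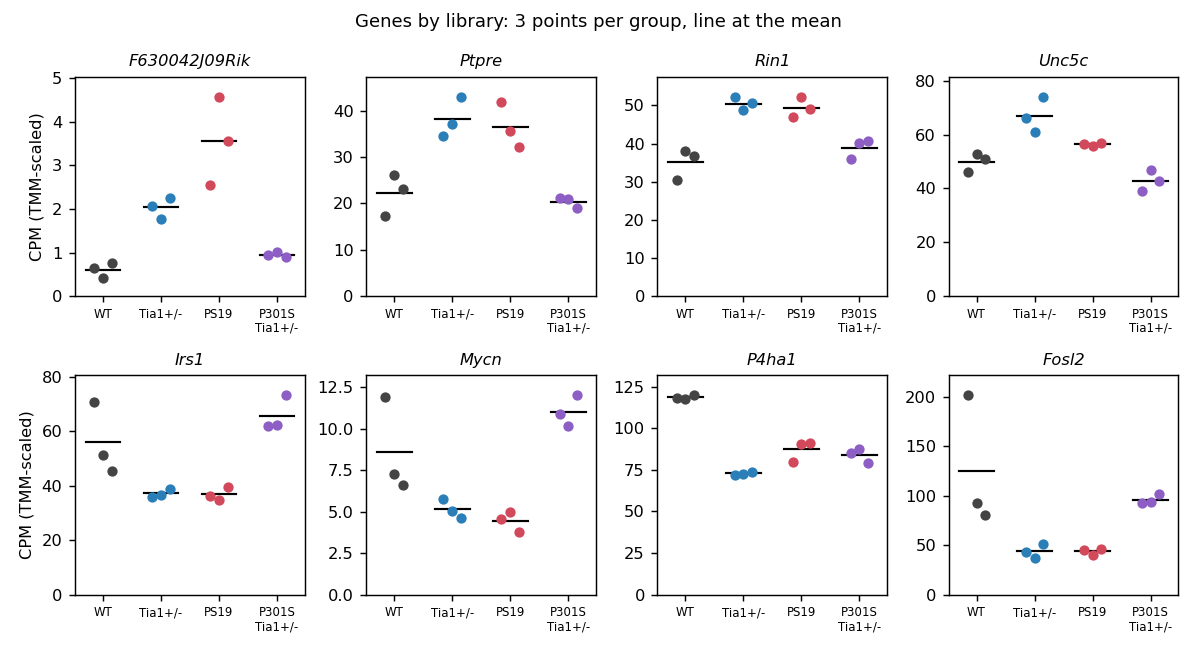
TMM-scaled CPM (y axis, linear from 0) of 8 genes in the 12 libraries, with 3 points per group and a line at the group mean. F630042J09Rik, Ptpre, Rin1 and Unc5c are low in WT and P301S Tia1+/-, Irs1, Mycn and Fosl2 are high in both, and P4ha1 is high in WT, at 118 to 120 CPM.

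In the positive direction no gene passed the test, and the 12 genes with the smallest p all had an adjusted p of 0.0579 (edgeR). S100a5, a calcium-binding protein of olfactory sensory neurons, had 102, 12.2 and 5.63 CPM in WT, 64.8, 108 and 104 in P301S Tia1+/-, 0.414, 0.328 and 2.58 in Tia1+/- and 0.312, 0.560 and 0.0602 in PS19. Its interaction was 13.41 ± 1.74 (SE). Omp, the olfactory marker protein, had an interaction of 13.33 ± 1.82 (SE), with WT and P301S Tia1+/- likewise above the 6 other libraries. Stoml3, a stomatin-like protein of olfactory cilia, had 97, 225 and 272 counts in the P301S Tia1+/- libraries and at most 3 in each PS19 library, which is at least 62.0-fold higher against a floor of 3 counts per library. The potassium channel gene Kcnk15 had 49 to 68 counts in P301S Tia1+/- and at most 2 in PS19, at least 18.2-fold higher against the same floor. S100a5, Omp and Stoml3 are among the 16 bulb markers, and all 4 genes were high in P301S Tia1+/- and WT replicate 1.

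Irs1, an adaptor of the insulin receptor (chr1:82233101-82291416), had 70.8, 51.4 and 45.6 CPM in WT, 61.8, 62.1 and 73.2 in P301S Tia1+/-, 36.0, 36.7 and 38.9 in Tia1+/- and 36.3, 34.6 and 39.7 in PS19, an interaction of 1.42 ± 0.21 (SE). Mycn, a MYC-family transcription factor, had 11.9, 7.27 and 6.62 CPM in WT, 10.9, 10.2 and 12 in P301S Tia1+/-, 5.80, 5.06 and 4.64 in Tia1+/- and 4.57, 4.96 and 3.79 in PS19 (2.05 ± 0.31, SE). Fosl2, an AP-1 subunit, had 201, 92.6 and 80 CPM in WT, 92.8, 93.2 and 102 in P301S Tia1+/-, 43.5, 36.7 and 51.0 in Tia1+/- and 45.1, 39.9 and 45.7 in PS19 (2.65 ± 0.40, SE). In each, the 6 libraries of WT and P301S Tia1+/- lay above the 6 others, and WT replicate 1 was the highest of the WT libraries. Igfbp2, an insulin-like growth factor binding protein (2.80 ± 0.46, SE), and Arid5a, an RNA-binding and chromatin protein (1.51 ± 0.24, SE), were split in the same way. With the bulb marker level as a covariate these values fell toward 0 without turning: Igfbp2 to 0.16, Fosl2 to 0.33, Irs1 to 0.44, Mycn to 0.94 and Arid5a to 1.08. Rab37, a Rab GTPase of secretory granules (5.79 ± 0.95, SE), turned to -0.30.

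P4ha1 and Elovl6 had a different order, in which WT stood above every other library. P4ha1, a collagen prolyl 4-hydroxylase subunit (chr10:59323296-59373304), had 118, 118 and 120 CPM in WT, 85.1, 87.5 and 79.1 in P301S Tia1+/-, 71.9, 72.7 and 74.0 in Tia1+/- and 79.9, 90.6 and 91.1 in PS19. Its interaction of 0.65 ± 0.10 (SE) came almost wholly from the difference without tau, -0.70, against -0.06 with tau. It was 0.62 with the bulb covariate and 0.63 without WT replicate 1. Elovl6, a fatty acid elongase, had 109 to 129 CPM in WT, 97.1 to 108 in P301S Tia1+/-, 76.3 to 80.7 in Tia1+/- and 78.5 to 96.2 in PS19 (0.81 ± 0.14, SE).

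Endoplasmic reticulum chaperones and genes of the unfolded protein response, which fold secreted proteins and are induced when misfolded proteins build up in that compartment, stood highest in WT. Of 29 members tested, 14 (48.3%) had all 3 WT libraries above the 9 others, against 3.30% of all genes. Their summed level was 4458 to 5512 CPM in WT and 3532 to 4045 CPM in the 9 other libraries, a mean 1.30-fold higher in WT. The median interaction of the list was 0.31 (0.01 over all genes), and 12 members (41.4%) had an unadjusted p under 0.05 with a positive sign, against 13.7% of all genes. The median Tia1 difference was -0.30 without tau and -0.08 with tau. No member passed the adjusted threshold.

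The 4 members with the smallest p were Atf3, Manf, Hspa5 and Creld2. Hspa5, which encodes the chaperone BiP (chr2:34771970-34777547), had 984, 635 and 599 CPM in WT, 387, 401 and 350 in P301S Tia1+/-, 347, 358 and 389 in Tia1+/- and 409, 389 and 437 in PS19 (0.90 ± 0.23, SE, adjusted p 0.0758). Manf, a secreted survival factor of stressed neurons, had 81.8, 76.0 and 68.7 CPM in WT and 41.2 to 53.5 CPM in the other 9 libraries (0.64 ± 0.14, SE, adjusted p 0.0684). Creld2, a disulfide isomerase-like protein, had 36.4, 20.6 and 23.4 CPM in WT and 12.9 to 16.1 CPM in the others (0.99 ± 0.26, SE, adjusted p 0.0804). All 3 stood above the 9 other libraries in WT, with WT replicate 1 highest. Atf3, a stress-induced transcription factor, was instead high in WT replicate 1 (27.8 CPM) and in P301S Tia1+/- (13.4 to 19.2 CPM), with 1.75 to 7.27 in the other WT libraries and 0.552 to 3.44 elsewhere (6.19 ± 1.14, SE, adjusted p 0.0579). With the bulb covariate the list's median was -0.02, Manf had 0.53, and Hspa5 (-0.22), Creld2 (-0.095) and Atf3 (-0.98) changed sign. Without WT replicate 1 the list's median was 0.26, with 10 members positive at an unadjusted p under 0.05.

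The ER stress response element, CCAAT followed after any 9 bases by CCACG, is read by the unfolded protein response factor ATF6 together with NF-Y. The element was searched on both strands in the RefSeq promoter windows. It was found for 8 of the 25 list members with a window (32.0%) and for 0.137% of 27025 genes. WT stood above the 9 other libraries for 6 of the 8 members with the element and for 7 of the 17 without it. The interaction did not lean the same way: at an unadjusted p under 0.05, 3 of the 8 were positive, against 11 of all 25 members with a window. The sites are shown because they mark the members of the list that share a known control sequence, with the element in capitals on its own strand (GRCm38.p6). Hspa5, Creld2, Calr, Hsp90b1, Pdia6 and Dnajc3 are the members with WT apart, and Canx and Syvn1 are not.
Hspa5 chr2:34772020-34772048, forward strand: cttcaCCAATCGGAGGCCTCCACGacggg
Creld2 chr15:88819515-88819543, reverse strand: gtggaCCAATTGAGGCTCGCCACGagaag
Calr chr8:84847070-84847098, forward strand: atgggCCAATGAGGGTCGACCACGcgttg
Hsp90b1 chr10:86705528-86705556, forward strand: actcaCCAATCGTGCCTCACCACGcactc
Pdia6 chr12:17266486-17266514, forward strand: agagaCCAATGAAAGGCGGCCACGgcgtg
Dnajc3 chr14:118937822-118937850, forward strand: cacaaCCAATCAGCGCCAACCACGacccg
Canx chr11:50325795-50325823, reverse strand: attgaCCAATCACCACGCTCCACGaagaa
Syvn1 chr19:6046527-6046555, forward strand: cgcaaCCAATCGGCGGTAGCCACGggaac
Hsp90b1 held a second match. Calr, Hsp90b1, Pdia6, Dnajc3, Canx and Syvn1 are named here for their sites and were chosen after values were known.

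Heat shock chaperones, the cytosolic and mitochondrial folding machinery under HSF1, had the same order. WT stood above the 9 other libraries for 12 of 23 members (52.2%, against 3.30% of all genes), and their summed level was 9929 to 11708 CPM in WT and 7803 to 9170 elsewhere. The median interaction was 0.28, and 9 members (39.1%) were positive at an unadjusted p under 0.05, against 13.7% of all genes, and 1 was negative. Without WT replicate 1 the median was 0.17, with 7 members positive. Dnajb5, an HSP40 co-chaperone, had 190, 126 and 143 CPM in WT, 95.8 to 108 in P301S Tia1+/-, 75.4 to 91.8 in Tia1+/- and 74.4 to 103 in PS19 (1.12 ± 0.23, SE, adjusted p 0.0618). Hspa1a, an inducible HSP70, had 21.7 to 30.6 CPM in WT and 8.12 to 13.3 CPM in the 9 others (1.0 ± 0.28, SE, adjusted p 0.0883), though a near-identical neighbour, Hspa1b, may share its reads. Dnajb1, another HSP40, had 87.0 to 116 CPM in WT and 51.4 to 83.1 in the others (0.68 ± 0.19, SE, adjusted p 0.0888). These 3 members had WT wholly on top, and kept interactions of 0.82, 0.97 and 0.70 with the bulb covariate. Hspb1, a small heat shock protein, had 6.39 to 14.7 CPM in WT and up to 7.85 CPM in P301S Tia1+/- replicate 3 (2.18 ± 0.52, SE), and -0.18 with the bulb covariate, under which the list's median was 0.03.

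The heat shock element was searched as GAA, TTC and GAA with any 2 bases between them, on both strands, and was found for 4 of 18 members with a window (22.2%) and for 0.662% of all genes. Hspd1 and Hspe1, the mitochondrial chaperonin and its lid, are transcribed in opposite directions from 1 shared promoter that holds it on both strands. The site is shown as the shared control sequence of that gene pair, from chr1:55088054-55088076 on the reverse strand:
Hspd1 and Hspe1: ttccgGAAGGTTCTAGAAcggac
WT stood above the 9 others for 3 of the 4 members with the element and for 7 of the 14 without it. Hspd1 is among those 3, and Hspe1 is the member with the element that is not. At an unadjusted p under 0.05 the interaction was positive for 1 of the 4, against 8 of all 18 members with a window. Hspd1 and Hspe1 are named for the site.

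Immediate early genes, which neurons and other cells switch on within minutes of stimulation, had a median interaction of 0.69, and 26 of 28 members were above 0. The median was 0.39 without Tia1+/- replicate 3 and 0.49 to 0.92 without any other 1 library. At an unadjusted p under 0.05, 11 (39.3%) were positive, against 13.7% of all genes, and 1 was negative. The members divided by the order of the libraries. Fosl2, Tiparp, Sik1, Fosb and Dusp5 (17.9% of the list, against 1.19% of all genes) had WT and P301S Tia1+/- wholly above Tia1+/- and PS19. Egr2, Nptx2, Homer1, Bdnf and Egr3 (17.9%, against 3.30%) had WT alone above the 9 others. Dusp5 and these last 5 are named for their place in that order, after their values were seen.

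Tiparp, a poly-ADP-ribose polymerase, had 134, 82.2 and 75 CPM in WT, 88.0, 72.6 and 84.9 in P301S Tia1+/-, 39.2, 39.4 and 42.6 in Tia1+/- and 28.6, 56.9 and 57.8 in PS19 (2.05 ± 0.38, SE, adjusted p 0.0579). Sik1, a salt-inducible kinase of CREB signalling, had 28.7 to 41.7 CPM in WT, 31.1 to 43.7 in P301S Tia1+/-, 12.2 to 18.9 in Tia1+/- and 10.5 to 25.7 in PS19 (2.09 ± 0.42, SE, adjusted p 0.0618). Fosb, an AP-1 subunit, had 85.6, 34.0 and 24.1 CPM in WT, 19.2 to 24.7 in P301S Tia1+/-, 8.83 to 14 in Tia1+/- and 11.1 to 16.8 in PS19 (2.73 ± 0.56, SE, adjusted p 0.0618). In all 3, P301S Tia1+/- lay above PS19 and Tia1+/- below WT. The summed level of the list, 2798 to 2955 CPM in WT, 1686 to 1856 in P301S Tia1+/-, 1143 to 2160 in Tia1+/- and 1256 to 2243 in PS19, showed WT alone on top. The cAMP response element TGACGTCA was in the windows of 2 of 21 members (9.52%), and of 2.03% of all genes. With the bulb covariate the list's median was 1.54, while Fosb had 0.09, Sik1 0.57 and Tiparp 0.64.

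**Figure D4:**
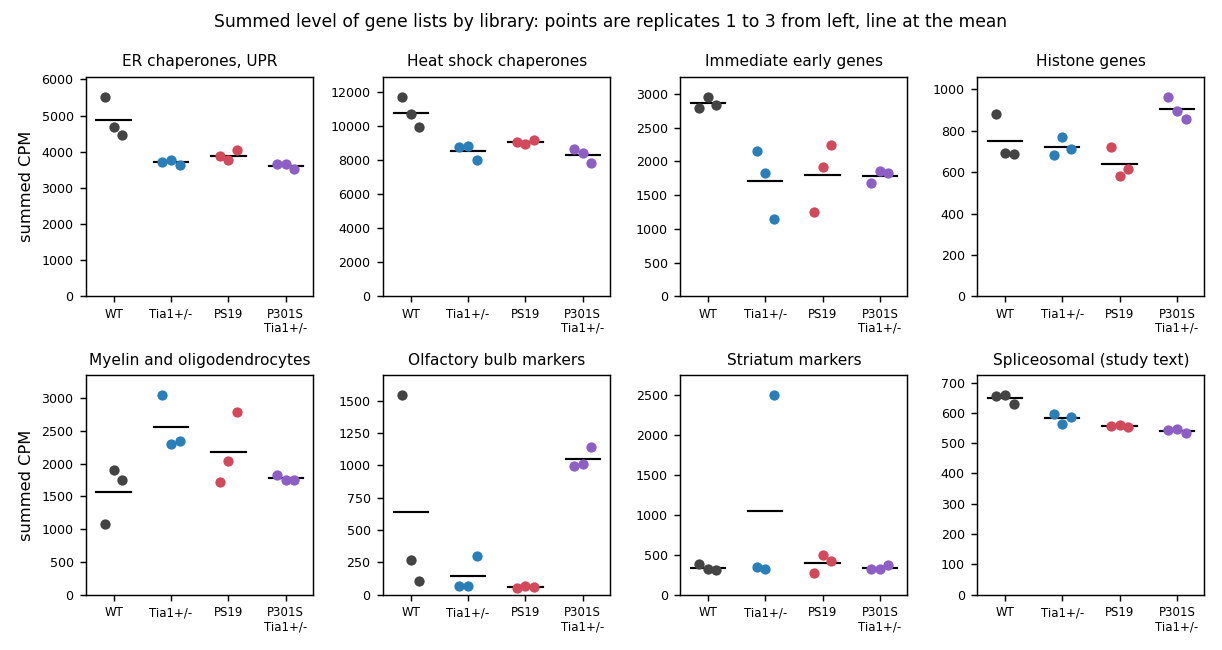
Summed CPM (y axis, linear from 0) of 8 gene lists in the 12 libraries, with replicates 1 to 3 of a group from left to right and a line at the mean. ER chaperones (4458 to 5512 in WT), heat shock chaperones and immediate early genes stand apart in WT, histone genes are highest on average in P301S Tia1+/-, and single libraries are far from their group for bulb markers (WT replicate 1, 1540) and striatal markers (Tia1+/- replicate 3, 2494).

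Replication-dependent histone genes, whose transcripts mostly lack poly(A) tails and peak in dividing cells, showed yet another order. Of 47 members tested out of 68 in the table, 41 were above 0, with a median of 0.63, and 19 (40.4%) were positive at an unadjusted p under 0.05 with 0 negative, against 13.7% and 9.24% of all genes. The median Tia1 difference was 0.51 with tau and -0.07 without, and P301S Tia1+/- stood above the 9 other libraries for 11 members (23.4%, against 2.51% of all genes). Hist1h4j had 41.9 to 56.8 CPM in WT, 57.7 to 60.3 in P301S Tia1+/-, 41.7 to 44.1 in Tia1+/- and 30.6 to 42.9 in PS19 (0.80 ± 0.19, SE, adjusted p 0.0711). Hist1h3h had 15.4 to 24.6 CPM in WT, 25.8 to 27.5 in P301S Tia1+/-, 12.5 to 18.0 in Tia1+/- and 11.5 to 17.5 in PS19 (1.15 ± 0.29, SE, adjusted p 0.0732). In both, P301S Tia1+/- lay above all others. Hist1h1b, a linker histone, was highest in WT instead (7.84 to 11.3 CPM, against 4.19 to 7.14 elsewhere, 1.02 ± 0.24, SE), and Hist1h4d had 0.65 ± 0.16 (SE). Histone genes are near-identical copies, so reads may be split among them. With the bulb covariate the median was 0.11, with 6 members positive and 2 negative.

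For the RNA-binding proteins closest to TIA1 the median interaction was small, with members of either sign. Among 29 stress granule proteins the median was 0.05, and 3 members were positive and 3 negative at an unadjusted p under 0.05 (10.3% each, against 13.7% and 9.24% of all genes). With 1 library left out the median was -0.048 (without WT replicate 1) to 0.063, with 2 to 5 positive and 1 to 5 negative members, and the bulb covariate gave -0.20. Ybx1, a cold shock domain protein, had 218, 143 and 121 CPM in WT, 126 to 134 in P301S Tia1+/-, 78.0, 82.0 and 127 in Tia1+/- and 74.0 to 90.7 in PS19 (1.38 ± 0.32, SE, adjusted p 0.0689). Its WT and Tia1+/- libraries overlapped, and the value was -0.43 with the bulb covariate. Cirbp, the cold-inducible RNA-binding protein, had 57.0 to 65.1 CPM in WT, 72.9 to 89.4 in P301S Tia1+/-, 58.2 to 65.9 in Tia1+/- and 61.4 to 62.8 in PS19, so that P301S Tia1+/- stood apart (0.40 ± 0.13, SE, adjusted p 0.118). The core granule proteins G3bp1 (0.34 ± 0.13, SE) and G3bp2 (-0.41 ± 0.15, SE) had adjusted p-values of 0.149 and 0.144, and both turned sign with the bulb covariate, to -0.16 and 0.039. Tia1 itself had an interaction of 0.29 ± 0.16 (SE, adjusted p 0.309), which turned to -0.53 with that covariate.

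Among 43 splicing regulators the median interaction was 0.02, with 9 positive (20.9%) and 5 negative (11.6%) at an unadjusted p under 0.05, against 13.7% and 9.24% of all genes, and the median was -0.29 with the bulb covariate. WT stood above the 9 others for 6 members (14%, against 3.30% of all genes), and P301S Tia1+/- below them for 5 (11.6%, against 1.82%). There were 7 to 12 positive and 3 to 8 negative members with 1 library left out, with 8 negative without WT replicate 2 and 3 without P301S Tia1+/- replicate 1 or 3. Their summed level was 7624 to 8323 CPM in WT and 6627 to 7501 in the other libraries. Hnrnpf, a G-tract-binding protein, had 190, 152 and 135 CPM in WT, 127 to 133 in P301S Tia1+/-, 106 to 108 in Tia1+/- and 106 to 120 in PS19 (0.76 ± 0.16, SE, adjusted p 0.0618, 0.15 with the bulb covariate). The SR-related proteins Tra2a (1.01 ± 0.27, SE) and Tra2b (0.59 ± 0.15, SE) and the SR protein Srsf10 (0.80 ± 0.21, SE) had adjusted p-values of 0.0813, 0.0758 and 0.0820. In all 3, WT replicate 1 was the highest of the 12 libraries, and with the bulb covariate Tra2a had -0.61, Srsf10 -0.29 and Tra2b 0.05.

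The 13 spliceosomal and RNA-binding genes that the study names were chosen by it on these libraries, so their direction is not independent evidence. Their summed level was 629 to 658 CPM in WT and 532 to 596 in the other groups, and WT stood above the 9 others for 5 of them (38.5%, against 3.30% of all genes), Snrpf, U2af1, Prpf3, Rbm17 and Snrnp70. The median interaction was 0.14, with 5 positive (38.5%) and 1 negative (7.69%) at an unadjusted p under 0.05, against 13.7% and 9.24% of all genes. Leaving out any 1 library lowered the 5 to between 1 and 3, with 1 left without P301S Tia1+/- replicate 2, Tia1+/- replicate 2 or PS19 replicate 3. Snrpb, a core snRNP protein, had 70.5 to 74.4 CPM in WT, 74.8 to 79.5 in P301S Tia1+/-, 56.6 to 72.2 in Tia1+/- and 63.1 to 66.0 in PS19 (0.37 ± 0.13, SE, adjusted p 0.126). U2af1, which reads the 3' splice site, had 39.6 to 46.3 CPM in WT and 31.9 to 37.8 elsewhere (0.34 ± 0.13, SE, adjusted p 0.160, -0.14 with the bulb covariate). Snrpf had 0.58 ± 0.22 (SE, adjusted p 0.156), and Rbm11, a tissue-restricted splicing regulator, had -0.90 ± 0.36 (SE, adjusted p 0.174) and 0.42 with the bulb covariate.

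Genes of tau and microtubules had a median of -0.22, with 6 positive and 6 negative of 32 (18.8% each, against 13.7% and 9.24% of all genes) at an unadjusted p under 0.05. The median was -0.13 without WT replicate 1 and turned to 0.28 with the bulb covariate, with 9 positive and 2 negative. Leaving out 1 library gave 3 to 6 positive and 3 to 12 negative members, with 12 without Tia1+/- replicate 3, 10 without WT replicate 3 and 3 without Tia1+/- replicate 1 or P301S Tia1+/- replicate 1. Mapt, counted on the mouse gene, had 256 to 413 CPM in WT, 336 to 357 in P301S Tia1+/-, 344 to 502 in Tia1+/- and 439 to 462 in PS19 (-0.70 ± 0.24, SE, adjusted p 0.129), and the covariate fit gave 0.71. Prnp, whose promoter drives the transgene, had 1334 to 1879 CPM in WT, 1404 to 1535 in P301S Tia1+/-, 996 to 1922 in Tia1+/- and 2018 to 2158 in PS19 (-0.40 ± 0.29, SE, adjusted p 0.416), with 1.12 in the covariate fit. PS19 was the highest group for Prnp and P301S Tia1+/- lay wholly below it for both genes. For both genes P301S Tia1+/- also lay within the WT range, so neither transcript marked its libraries as carriers of the transgene. Whether counts on these mouse genes register the transgene was not tested. Tubb3, the neuronal beta-tubulin, had 356 to 370 CPM in WT, 434 to 492 in P301S Tia1+/-, 349 to 358 in Tia1+/- and 333 to 377 in PS19, so that P301S Tia1+/- stood apart (0.39 ± 0.11, SE, adjusted p 0.0888). Fyn, a Src-family kinase that binds tau, had 141 to 150 CPM in P301S Tia1+/-, 173 in WT replicate 1 and 92.3 to 99.2 in the other 8 libraries (0.95 ± 0.27, SE, and -0.41 with the covariate). Mark3, a kinase of microtubule-associated proteins, had 0.42 ± 0.13 (SE), and Map7, which recruits kinesin-1, had -0.62 ± 0.19 (SE) and 0.22 with the covariate.

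**Figure D5:**
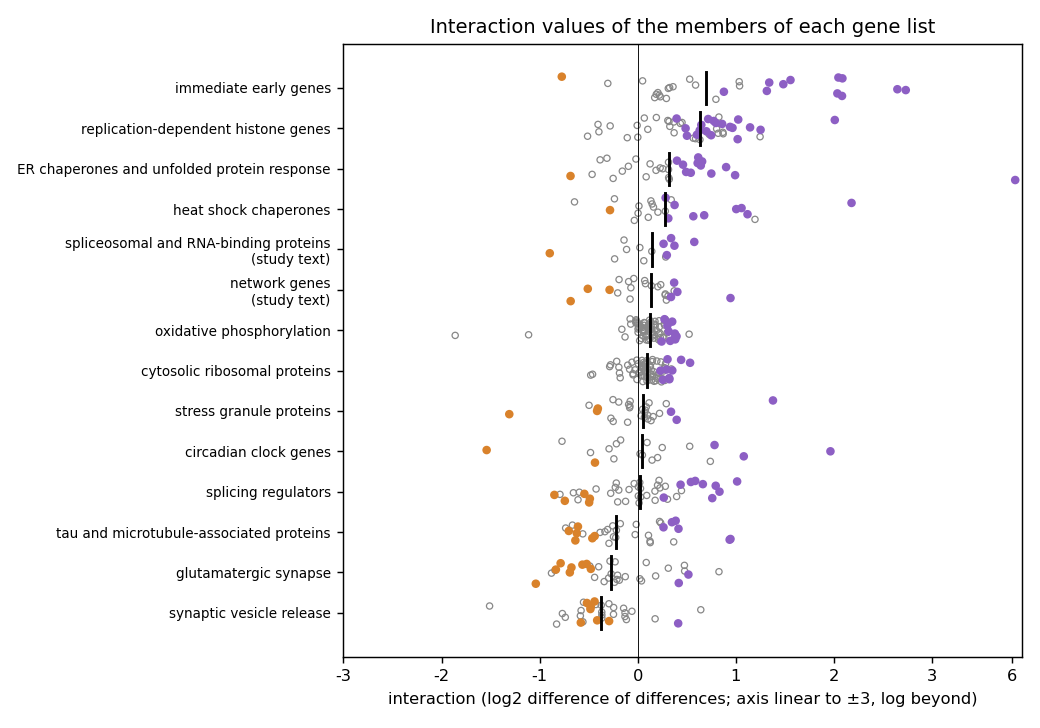
Interaction of every tested member (x axis, log2 difference, linear to 3 on either side and logarithmic beyond) in 14 gene lists (y axis), with filled points for an unadjusted p under 0.05, open points for the others and a bar at the list's median. Medians run from -0.37 for synaptic vesicle release to 0.69 for immediate early genes, and each list holds members on both sides of 0.

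Synaptic and myelin genes leaned to the negative side. Among 33 genes of the glutamatergic synapse the median was -0.27, with 8 negative (24.2%, against 9.24% of all genes) and 2 positive at an unadjusted p under 0.05. Nlgn1, a postsynaptic adhesion protein, had 141, 209 and 197 CPM in WT, 150 to 164 in P301S Tia1+/-, 194 to 201 in Tia1+/- and 228 to 243 in PS19 (-0.68 ± 0.17, SE, adjusted p 0.0781). The receptor genes Grm5 (-0.83 ± 0.24, SE), Grin2b (-0.69 ± 0.23, SE) and Grm7 (-0.48 ± 0.17, SE) had adjusted p-values of 0.0962, 0.120 and 0.145. For 31 genes of vesicle release the median was -0.37 with 7 negative (22.6%) and 1 positive. The negative members numbered 2 to 15 with 1 library left out, with 15 without Tia1+/- replicate 3 and 2 without P301S Tia1+/- replicate 1 or Tia1+/- replicate 1, and 3 without PS19 replicate 2. For the glutamatergic list it gave 4 to 13, with 13 without Tia1+/- replicate 3 and 4 without PS19 replicate 2, P301S Tia1+/- replicate 1 or Tia1+/- replicate 1. Erc2, an active zone scaffold, had 230 to 256 CPM in WT, 233 to 248 in P301S Tia1+/-, 260 to 297 in Tia1+/- and 266 to 304 in PS19, the crossing order (-0.41 ± 0.12, SE, adjusted p 0.0888), while Erc1 had -0.29 ± 0.11, Cplx2 -0.58 ± 0.23 and Syn2 -0.48 ± 0.20 (SE). With the bulb covariate both medians turned, to 0.20 and 0.64, as did Grm7 (0.20), Cplx2 (0.17) and Syn2 (0.43). Without WT replicate 1 and Tia1+/- replicate 3 the medians were -0.36 and -0.37, with 15 and 20 members negative.

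Oligodendrocyte and myelin markers had a median of -1.06, and 14 of 17 (82.4%, against 9.24% of all genes) were negative at an unadjusted p under 0.05 with 0 positive. Their summed level was 1075 to 1898 CPM in WT, 1743 to 1821 in P301S Tia1+/-, 2304 to 3043 in Tia1+/- and 1716 to 2792 in PS19. Tia1+/- thus lay wholly above WT and P301S Tia1+/-, and the other pairs of groups overlapped. Cnp, a myelin enzyme, had 117, 167 and 160 CPM in WT, 206, 195 and 215 in P301S Tia1+/-, 291, 244 and 249 in Tia1+/- and 187, 204 and 258 in PS19 (-0.89 ± 0.21, SE, adjusted p 0.0694). Fa2h, which makes hydroxylated myelin lipids, had 2.40 to 5.55 CPM in WT and 9.28 to 11.7 in Tia1+/- (-1.69 ± 0.38, SE, adjusted p 0.0684). The precursor markers Cspg4 (-1.20 ± 0.26, SE) and Pdgfra (-0.81 ± 0.19, SE) had the same sign. With the bulb covariate the median was -0.14 and Fa2h had 0.048, whereas Cspg4 (-1.62) and Pdgfra (-1.0) did not turn. Without WT replicate 1 the median was -0.81, with 13 members negative.

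Clock genes had a median of 0.05, with 3 positive and 2 negative of 19 (15.8% and 10.5%, against 13.7% and 9.24% of all genes) at an unadjusted p under 0.05. Under the bulb covariate it was 0.79, with 11 positive and 0 negative. Medians with 1 library left out were -0.11 (without WT replicate 3) to 0.15 (without WT replicate 1), with 3 to 5 positive and 1 to 4 negative members. Npas2, a partner of BMAL1, had 15.4, 28.8 and 31.9 CPM in WT, 15.2 to 17.2 in P301S Tia1+/-, 32.2 to 38.4 in Tia1+/- and 31.9 to 38.4 in PS19 (-1.54 ± 0.30, SE, adjusted p 0.0608). The repressors Per2 (0.78 ± 0.22, SE), Nfil3 (1.97 ± 0.45, SE) and Cry1 (1.08 ± 0.28, SE) had the opposite sign, with adjusted p-values of 0.0858, 0.0689 and 0.0787. Per2 had 53.9 to 60.7 CPM in WT and 29.1 to 44.0 in the others and had 1.49 with the bulb covariate, under which Cry1 turned to -0.22. No dissection time is given in the labels.

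In the fit without a covariate, the interaction of housekeeping assemblies was small and mostly of one sign. Of 75 oxidative phosphorylation genes 64 were above 0, with a median of 0.12 and 10 (13.3%) positive at an unadjusted p under 0.05, near the 13.7% of all genes, and 3 to 13 when 1 library was left out, with 3 without Tia1+/- replicate 1. Cox5a, a subunit of cytochrome c oxidase, had 107 to 114 CPM in PS19, below the 9 other libraries (0.40 ± 0.10, SE, adjusted p 0.0758), and so did Cox7c at 104 to 109 CPM (0.38 ± 0.11, SE). Of 78 cytosolic ribosomal protein genes 62 were above 0, with a median of 0.10 and 9 (11.5%) positive, and 3 to 12 when 1 library was left out, with 3 without PS19 replicate 2 or P301S Tia1+/- replicate 1. With the bulb covariate the oxidative phosphorylation median was 0.43, with 20 members positive and 6 past the adjusted threshold. The ribosomal median was 0.10 under that covariate, with 1 member positive. Among 23 genes of the network the study describes, also chosen on these libraries, the median was 0.14 with 4 positive and 3 negative at an unadjusted p under 0.05 (17.4% and 13.0%, against 13.7% and 9.24% of all genes). The smallest p-values were those of Fyn, given above, of Mdm2, a p53 ubiquitin ligase (0.40 ± 0.12, SE, adjusted p 0.0938), and of Ntrk3, the neurotrophin-3 receptor (-0.51 ± 0.16, SE, adjusted p 0.115). Leaving out 1 library gave 2 to 5 positive and 1 to 3 negative members and medians of 0.07 (without PS19 replicate 1) to 0.19.

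Larger interactions than in the lists above were found for markers of olfactory bulb and striatum. Of the 16 olfactory bulb markers, whose summed levels are given above, 8 held at least 10 counts in every library, and the others entered the test through the libraries where they were high. Barhl2 had 1.64 to 2.20 CPM in P301S Tia1+/- and at most 1 count in any PS19 library, and Trh, a neuropeptide made in the bulb, had 45.5 to 50.7 CPM against 1.02 to 1.76 (8.35 ± 1.59, SE, adjusted p 0.0608), with -1.77 in the covariate fit, to which it contributes. Striatal markers had 14 of 19 tested members (73.7%, against 9.24% of all genes) negative at an unadjusted p under 0.05 and 0 positive. There were 7 negative and 3 positive without Tia1+/- replicate 3, and 7 without PS19 replicate 2, 8 without P301S Tia1+/- replicate 1, 9 without P301S Tia1+/- replicate 2, WT replicate 2 or WT replicate 3, and 4 with limma-voom. Gpr6, a receptor of striatal neurons, had 23.8 CPM in Tia1+/- replicate 3 and 0.320 to 5.12 in the other 11 libraries (-5.70 ± 1.54, SE, adjusted p 0.0828). Without Tia1+/- replicate 3 the striatal median went from -3.09 to -0.94. Cortical excitatory neuron markers were 2 positive and 2 negative of 18 (11.1% each, against 13.7% and 9.24% of all genes), with 6 negative without Tia1+/- replicate 3, 11 without it and WT replicate 1, and 12 positive with the bulb covariate, which moved their median from -0.73 to 1.86. The median was -0.34 without WT replicate 1 and -0.42 without Tia1+/- replicate 1. They had a summed level of 1064 to 2128 CPM in the 12 libraries that was lowest in Tia1+/- replicate 3 and WT replicate 1.

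Tle4, a corepressor of deep cortical layers, had 51.4, 79.8 and 58.5 CPM in WT, 56.0 to 63.5 in P301S Tia1+/-, 91.4 to 99.8 in Tia1+/- and 79.7 to 88.7 in PS19 (-1.08 ± 0.19, SE, adjusted p 0.0579). An unadjusted p under 0.05 was met by 13.7% of all genes with a positive and by 9.24% with a negative sign. By that rule 3 of 24 microglial markers were positive (12.5%) and 5 negative (20.8%). The negative ones included Lpl, a lipase of activated microglia (-2.01 ± 0.50, SE), and C1qb, a complement subunit (-1.34 ± 0.42, SE). The positive ones are not named here. C1qb had 79.3, 39.6 and 28.3 CPM in PS19 and 25.4 to 48.9 in the other groups, with WT below the 9 other libraries. The negative microglial markers numbered 14 without PS19 replicate 3, 8 without Tia1+/- replicate 2, and 2 without PS19 replicate 1, Tia1+/- replicate 3 or P301S Tia1+/- replicate 1 or 2, and 3 without P301S Tia1+/- replicate 3 or WT replicate 2. Of 15 astrocyte markers 4 were positive and 1 negative, of 14 interneuron markers 5 and 1, and of 14 endothelial markers 4 and 0. Meningeal and mural markers had 5 and 1 of 15, and thalamic and hypothalamic markers 4 and 1 of 13. Hippocampal markers had 0 and 3 of 11, choroid plexus markers 1 and 2 of 10, and ependymal markers 1 and 1 of 7. The astrocyte median was -0.20, with 6 of 15 members above 0. With 1 library left out, 1 to 5 astrocyte, 1 to 4 endothelial and 2 to 6 meningeal and mural markers were positive. With the bulb covariate, 1 astrocyte marker was positive and 6 were negative. None of the 4 pituitary or 2 blood markers tested had an unadjusted p under 0.05.

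The interaction was not gathered in one part of the genome. The share of genes with an unadjusted p under 0.05 ran from 19.7% on chromosome 15 to 26.2% on chromosome 14, around 22.9% for all autosomes. Within 10 Mb of Tia1 on chromosome 6, where flanking DNA of the knockout's origin would be carried, it was 23.6% (33 of 140 genes). Both Tia1+/- groups would carry that DNA, so an effect of it that is equal with and without tau cancels in the interaction. This share therefore cannot show whether such an effect is present.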

How the data were processed

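Per the labels and the study's methods, cortical total RNA of 9-month-old mice was made into stranded paired-end libraries. Reads were aligned to mm10 with TopHat2 (2.0.6 in the submitters' processing notes, another version in the methods) and the authors deposited raw featureCounts read counts per gene symbol. The annotation and the strand setting of the counting are not given in the sources used here, so reads of overlapping genes may be shared (Ptpre, Rgs20, Rab37, Tiparp, Manf, Syn2 and Cnp overlap a gene of the other strand, and Omp, Prnp and Manf one of the same strand). All 12 columns of counts were used, and 0 rows named no gene.

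Counts were filtered with filterByExpr and scaled by TMM in edgeR 4.0.16 (R 4.3.3). The contrast was tested with glmQLFTest on 1 mean per group, with 8 residual degrees of freedom, and p-values were adjusted over all 15440 genes tested, with a threshold of 0.05. Values after ± are standard errors (the estimate divided by the root of F). CPM are TMM-scaled. Chromosomes came from GENCODE M21 and RefSeq (23925 of 24062 symbols placed). Named genes were the 12 with the smallest p in each direction, Tia1, Mapt and Prnp, the 4 members of each list with the smallest p, and genes named in the study's text, and 1 gene that this rule names is not reported here. Members, lists and tests were chosen with earlier results of these data known. Alternatives used DESeq2 1.42.0, limma 3.58.1, other filters, a replicate block, an olfactory bulb covariate and libraries left out. The code was tested on simulated data. Exact permutation of 3 against 3 libraries cannot go below 0.10. Floors cover counting error only.

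Replicate numbers did not pair the libraries: of 18 same-numbered pairs, 7 had deviations correlated above 0.1 (range -0.54 to 0.35).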

Additional observations from a re-analysis of the deposited data

Results flagged for a closer look

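F630042J09Rik, with an interaction of -3.61 on the log2 scale, is listed because its Tia1+/- difference differed between mice with and without tau by a test of the difference itself. Its Tia1+/- difference was -1.88 with tau and 1.72 without, and it stands on 5 to 59 counts per library. With a threshold of 0.05 on 15440 adjusted p-values, 1 call at 0.0466 lies close to the boundary.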

How the results depend on the processing

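The count of 1 gene moved with most settings. It was 1167 with DESeq2's Wald test, 261 with limma-voom and a weight per group, 0 with robust estimation (3384 genes at an unadjusted p under 0.05), 5 with no filter on low counts, 0 with at least 10 counts in every library (3034 at an unadjusted p under 0.05), 1389 with the olfactory bulb covariate, 2023 without WT replicate 1 and Tia1+/- replicate 3, and 989 at a threshold of 0.10, which was chosen after seeing the data. Leaving out 1 library gave 0 to 997 genes. With DESeq2's size factors it stayed at 1. With the groups exchanged as in the genotype entries edgeR called 0 genes (1247 at an unadjusted p under 0.05). With the replicate number as a block it called 0 genes (3047 at an unadjusted p under 0.05), but the numbers did not pair the libraries: 1 of 12 libraries correlated best with a library of its own number.

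All 84 named genes kept their direction in every fit that left libraries out, changed the test or the scaling, dropped the filter or added the replicate block, as did the 75 that had at least 10 counts in every library. With the bulb covariate 61 kept it and 23 turned: Rab37 -0.30, Tia1 -0.53, Mapt 0.71, Prnp 1.12, Ybx1 -0.43, G3bp2 0.039, G3bp1 -0.16, U2af1 -0.14, Rbm11 0.42, Tra2a -0.61, Srsf10 -0.29, Fyn -0.41, Map7 0.22, Atf3 -0.98, Hspa5 -0.22, Creld2 -0.095, Hspb1 -0.18, Cry1 -0.22, Grm7 0.20, Cplx2 0.17, Syn2 0.43, Trh -1.77 and Fa2h 0.048. The cause of these turns was not tested. That covariate differs between groups and holds Omp, S100a5 and Stoml3 themselves, so it takes away part of the group difference by construction. Depth limits F630042J09Rik, Npbwr1, Kcnk15, S100a5, Omp, Stoml3, Atf3, Barhl2 and Gpr6, each with under 10 counts in some library.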
